A study of Mus musculus with 36 samples.

Results

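The DNA transposon families of the mouse genome were followed by RNA-seq of mouse embryonic fibroblasts (MEF). The 204 families studied are all those listed with the repeat class DNA, out of 1561 repeat families counted. The superfamily hAT held 115 of them and the superfamily TcMar held 58. The other 31 belonged to MuDR, MULE-MuDR or PiggyBac, carried a question mark in their annotation, or had no superfamily. Another 21 families whose class itself carries a question mark were left out.

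The 36 libraries came from 2 lines with 3 replicates at each of 6 time points. Both lines expressed a catalytically inactive Cas9 (dCas9) under doxycycline control and a guide RNA against the major satellite repeat (MSR), the tandem repeat of mouse pericentric heterochromatin. Both had been integrated with the PiggyBac system and kept under hygromycin as mixed cultures. MSR-dCas9-Control carried dCas9 without an effector, and MSR-dCas9-Activator carried dCas9 fused to VPR, a transcriptional activation domain. Libraries were made from uninduced cells, from cells induced with 10 ng/ml doxycycline (24 h in the Control line, 6 h in the Activator line), and from cells kept for 3, 6, 12 or 24 h without the drug after induction. The induced groups therefore differed in the length of exposure as well as in the effector, and the contributions of these cannot be told apart.

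DNA transposons move by cut and paste: an encoded transposase binds the terminal inverted repeats of the element, excises it and inserts it elsewhere. In mammals most copies are old, short and unable to move, and many lie within introns or between genes. hAT elements include the Charlie, Tip100 and Blackjack groups. TcMar (Tc1/mariner) elements include Tigger, Mariner, Tc2 and Pogo. Several host genes descend from transposases, among them Cenpb, which encodes a centromere protein. Many DNA transposon families are known by the abbreviation MER, for medium reiterated repeat.

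The target of the guide was higher in the line with the effector. Major satellite RNA (GSAT_MM) stood at 22.5 to 46.6 CPM, with TMM-normalised gene counts as the total, in the 18 Control libraries. It stood at 52.9 to 100.2 in the 3 uninduced Activator libraries and at 2346 to 47427 in the 15 Activator libraries from induction on. The libraries held 27376846 to 57371803 counts on genes. DNA transposon families held 254549 to 583326 counts per library (median 440170), of which 192473 to 429154 lay in hAT and 57769 to 144709 in TcMar. The summed level of 10 fibroblast markers was 22200 to 34900 CPM in the Control and uninduced Activator libraries and 11300 to 28900 from induction of the Activator on, and 7 of the 10 exceeded 1 CPM in every library. Summed over 3 genes each, endothelial markers reached 5.28 to 33.3 and liver markers 0.936 to 8.13 CPM in the activated libraries, against at most 0.868 and 0.147 in the others. Pecam1 reached 32.4 CPM, but Cdh5 at most 0.554 and Kdr at most 1.36. Alb reached 7.31, but Apoa1 at most 0.395 and Ttr at most 0.889. Neural markers were at 10.1 to 39.5 CPM in the activated libraries and 26.7 to 41.7 in the others. Pluripotent, epithelial and blood sums peaked at 2.1, 3.55 and 8.98 in the activated libraries and 1.12, 1.75 and 5.46 in the others. The part of these shifts in the results was not tested. In bulk RNA, fewer cells of a type and less RNA per cell cannot be told apart.

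Each family's count sums its copies over the whole genome, so it has no position and does not separate an element's own transcript from a longer transcript that contains it. Counts were scaled by the genes alone. Reads were concentrated in few families: the 10 with the most reads held 54.7% of DNA transposon counts, and the median family had a mean of 503 normalised counts. Of the 204 families, 198 passed the filter on low counts, and 169 had a mean of at least 100. A family was called higher or lower in edgeR's quasi-likelihood test at an adjusted p-value under 0.05 (Benjamini-Hochberg over the 1492 repeat families tested) and a log2 fold change beyond 0.5.

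Before induction the lines did not differ in any DNA transposon family at these limits. edgeR and DESeq2 each called 0 families, and 1 of 198 had an unadjusted p under 0.05 in edgeR. The share called among all repeat families was 0.0670% higher and 0% lower. The median log2 fold change of the DNA families was 0.01. Summed hAT levels were 7522 ± 522 CPM (SD, n = 3) in Control and 7588 ± 742 in Activator, and summed TcMar levels were 2501 ± 193 and 2525 ± 254. Both pairs of groups overlapped.

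From induction to 6 h after removal of the drug, more DNA transposon families were lower than higher in the Activator line under the scaling to genes, whereas more repeat families as a whole were higher than lower. At 6 h DESeq2's size factors turned this order for the DNA families, to 38 higher and 23 lower. In induced cells 15 DNA families were called higher and 46 called lower than in Control, and their median log2 fold change was -0.29. The shares among all repeat families were 20.2% higher and 12.3% lower, and their median was 0.00. The other classes differed among themselves: in induced cells 222 of 662 LTR families were higher and 29 lower, whereas of 282 simple repeats 12 were higher and 72 lower (median -0.33). LINE families had 12 higher and 13 lower of 158, and of 37 SINE families 2 were lower (median -0.26). Falls in induced cells were not limited to DNA transposons. After 3 h without the drug 22 DNA families were higher and 67 lower (31.0% and 15.8% of all families), and after 6 h 24 and 48 (34.4% and 11.2%). By 12 h the balance had turned, with 39 higher and 21 lower (45.4% and 5.76%). By 24 h 22 were higher and 6 lower (29.0% and 2.28%). Over these 4 time points the median of the DNA families was -0.36, -0.23, -0.04 and -0.07, each below the median of all families, which was 0.11, 0.21, 0.45 and 0.24. The median of SINE families was -0.35, -0.27, -0.03 and -0.02, and that of simple repeats -0.32, -0.20, 0.04 and 0.04. LINE families were at -0.04, 0.02, 0.25 and 0.10, and LTR families at 0.51, 0.56, 0.81 and 0.47. Without Control replicate 3, 14 DNA families were higher and 25 lower in induced cells. At 24 h the count of 28 fell to 17 without Activator replicate 1 and rose to 43 without Activator replicate 2.

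These counts depended on the scaling. The 13 mRNAs encoded by mitochondrial DNA gave a scaling that moved every log2 fold change by -0.36 in induced cells and by -0.59, -0.71, -0.66 and -0.24 at the 4 later time points. Under it 7 DNA families were higher and 106 lower in induced cells, and 5 and 139, 5 and 143, 11 and 113, and 6 and 15 at the later time points. DESeq2's size factors moved the values by 0.08 to 0.18 the other way and gave 19 higher and 26 lower in induced cells, then 31 and 37, 38 and 23, 54 and 13, and 30 and 4. With library size alone the 6 h values became 17 and 74, and those of 12 h became 32 and 39. The order of the groups within the class does not depend on scaling, since a scaling moves all families of a library together.

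**Figure D1:**
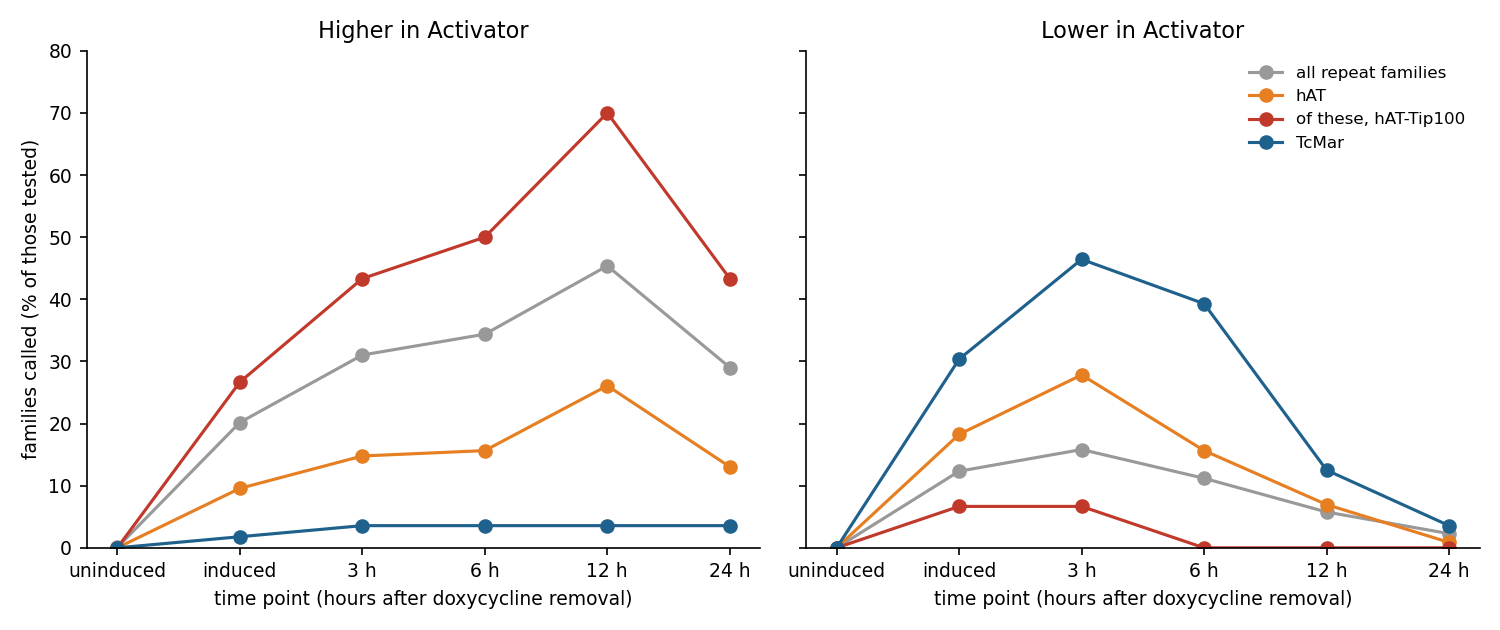
Share of the families tested that were called higher (left) or lower (right) in MSR-dCas9-Activator than in MSR-dCas9-Control, in percent, at the 6 time points. Grey, all 1492 repeat families; orange, 115 hAT families; red, the 30 hAT-Tip100 families among them; blue, 56 TcMar families. The red line lies highest on the left from induction on, and the blue line lies highest on the right.

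hAT and TcMar families differed in their counts. Of 115 hAT families, the numbers called higher were 11, 17, 18, 30 and 15 in induced cells and after 3, 6, 12 and 24 h, and those called lower were 21, 32, 18, 8 and 1. Of 56 TcMar families tested, 1, 2, 2, 2 and 2 were higher and 17, 26, 22, 7 and 2 lower. The higher hAT families made up 9.565, 14.78, 15.65, 26.09 and 13.04% of their group. This was below the share of all repeat families at each time point (20.2, 31.0, 34.4, 45.4 and 29.0%). The lower hAT families made up 18.26, 27.83, 15.65, 6.957 and 0.8696%, against 12.3, 15.8, 11.2, 5.76 and 2.28% of all repeat families. The median log2 fold change of the hAT families was -0.19, -0.23, -0.06, 0.20 and 0.06 at these 5 time points. That of the TcMar families was -0.36, -0.45, -0.40, -0.21 and -0.14. Over the 5 time points, 32 hAT families were higher at least once and 35 lower at least once, whereas 3 TcMar families were higher at least once and 27 lower. This count was not made over all repeat families. Of the 52 TcMar families whose mean reached 100 normalised counts, edgeR called 0 higher at any time point.

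The summed counts gave a ratio for each library. The ratio of hAT to TcMar counts, which no scaling changes, lay between 2.96 and 3.05 in all 18 Control libraries. It was 3.01, 3.01 and 3.00 in the uninduced Activator libraries (replicates 1, 2 and 3). In induced Activator cells it was 3.13, 3.02 and 3.15, against 3.05, 2.96 and 2.99 in induced Control, and the groups overlapped. At 3 h it was 3.32, 3.19 and 3.33. At 12 h it was 3.45, 3.24 and 3.43, and at 24 h 3.39, 3.10 and 3.36. From 3 h on each Activator library lay above every Control library. The means were 3.37 ± 0.12 (SD, n = 3) in Activator and 2.99 ± 0.012 in Control at 12 h, a ratio of 1.13. No test was run on this sum. Activator replicate 2 lay closest to the Control libraries at every time point from induction on. Its major satellite level was the lowest of the 3 in induced cells (2346 CPM against 3586 and 25079) and at 24 h (10977 against 11933 and 37090). At 3, 6 and 12 h it was not the lowest (at 12 h 19508, against 7946 and 47427 in replicates 1 and 3).

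**Figure D2:**
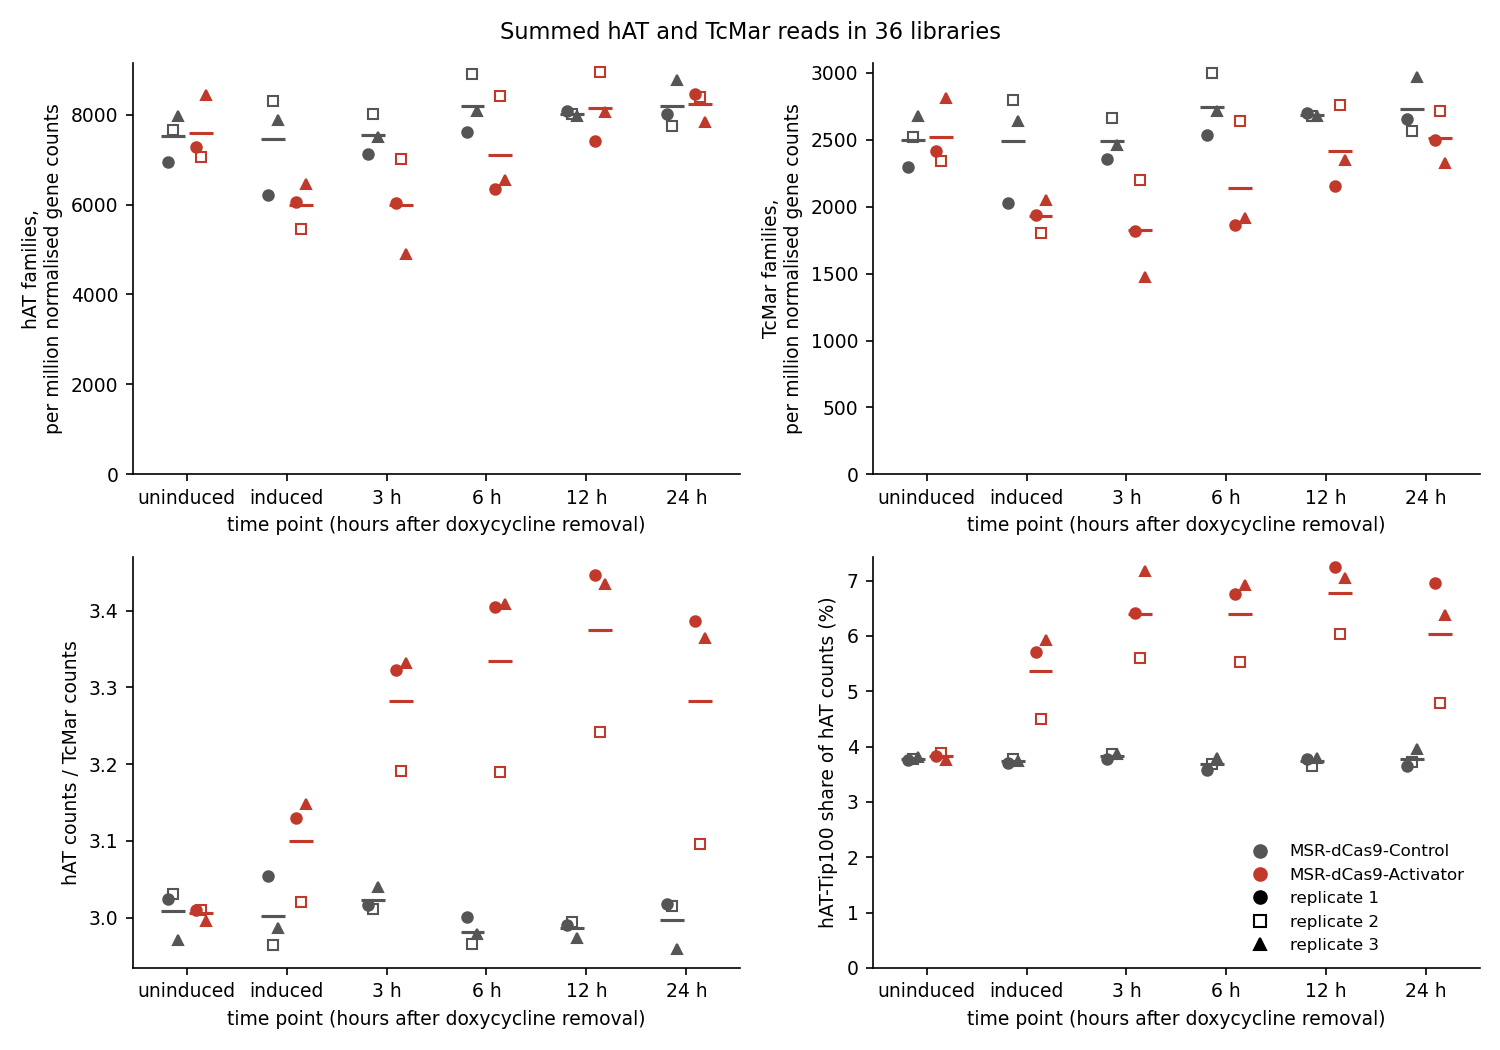
Summed hAT and TcMar levels in CPM (top), the ratio of hAT to TcMar counts (bottom left; the axis does not start at 0) and the hAT-Tip100 share of hAT counts in percent (bottom right) in 36 libraries at 6 time points. Points are libraries, with shape for the replicate, and bars are means of 3. From 3 h on the ratio was 3.10 to 3.45 in Activator and 2.96 to 3.04 in Control.

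Both sums were lower in the Activator line early on. Summed hAT levels in induced cells were 5995 ± 506 CPM (SD, n = 3) in Activator and 7464 ± 1109 in Control, and TcMar levels were 1932 ± 123 and 2490 ± 405. The groups overlapped, because Control replicate 1 was low (6206 for hAT, 2032 for TcMar). At 3 h the groups were apart, with hAT at 4904 to 7011 in Activator and 7117 to 8017 in Control and TcMar at 1472 to 2197 and 2359 to 2662. The Activator level was 0.794 of Control for hAT and 0.733 for TcMar. At 24 h hAT was at 8235 ± 346 against 8182 ± 536 and TcMar at 2514 ± 192 against 2731 ± 209, both with overlap. DNA transposons made up 3.70 to 4.12% of repeat counts in the 21 Control and uninduced Activator libraries and 2.03 to 3.52% in the 15 others. A share moves with the other repeats too: at 12 h it was 2.58% against 4.07%, while the DNA transposon sum was 0.987 of Control, LTR counts were 1.61 times Control and major satellite counts 738 times.

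Within hAT most calls were rises among Tip100 families and, up to 6 h, falls among Charlie families. Of 30 hAT-Tip100 families, 8, 13, 15, 21 and 13 were higher at the 5 time points from induction on, and 2, 2, 0, 0 and 0 were lower. The higher ones made up 26.7, 43.3, 50.0, 70.0 and 43.3% of the group, against 20.2, 31.0, 34.4, 45.4 and 29.0% of all repeat families, and against 33.5, 49.5, 55.1, 70.5 and 45.5% of LTR families. Of the 23 Tip100 families with a mean of at least 100, 4, 9, 12, 17 and 9 were higher. Of all 1172 repeat families with such a mean, 224, 359, 400, 541 and 326 were. In induced cells the share in Tip100 was then not above that of all families. Of 73 hAT-Charlie families, 3, 4, 3, 7 and 2 were higher and 16, 28, 16, 7 and 1 lower. The lower ones made up 21.9, 38.4, 21.9, 9.59 and 1.37% of the group, against 12.3, 15.8, 11.2, 5.76 and 2.28% of all repeat families. The median log2 fold change was 0.24, 0.45, 0.51, 0.78 and 0.46 for Tip100 and -0.36, -0.40, -0.26, -0.08 and -0.07 for Charlie. With mitochondrial scaling the Tip100 medians were -0.12, -0.12, -0.18, 0.13 and 0.19, so their sign turned at the first 3 of these time points. The 8 Blackjack families lay between the groups, with medians of -0.13 in induced cells and 0.41 at 12 h and with 2 called higher at 12 h, MER63A and MER63B.

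**Figure D3:**
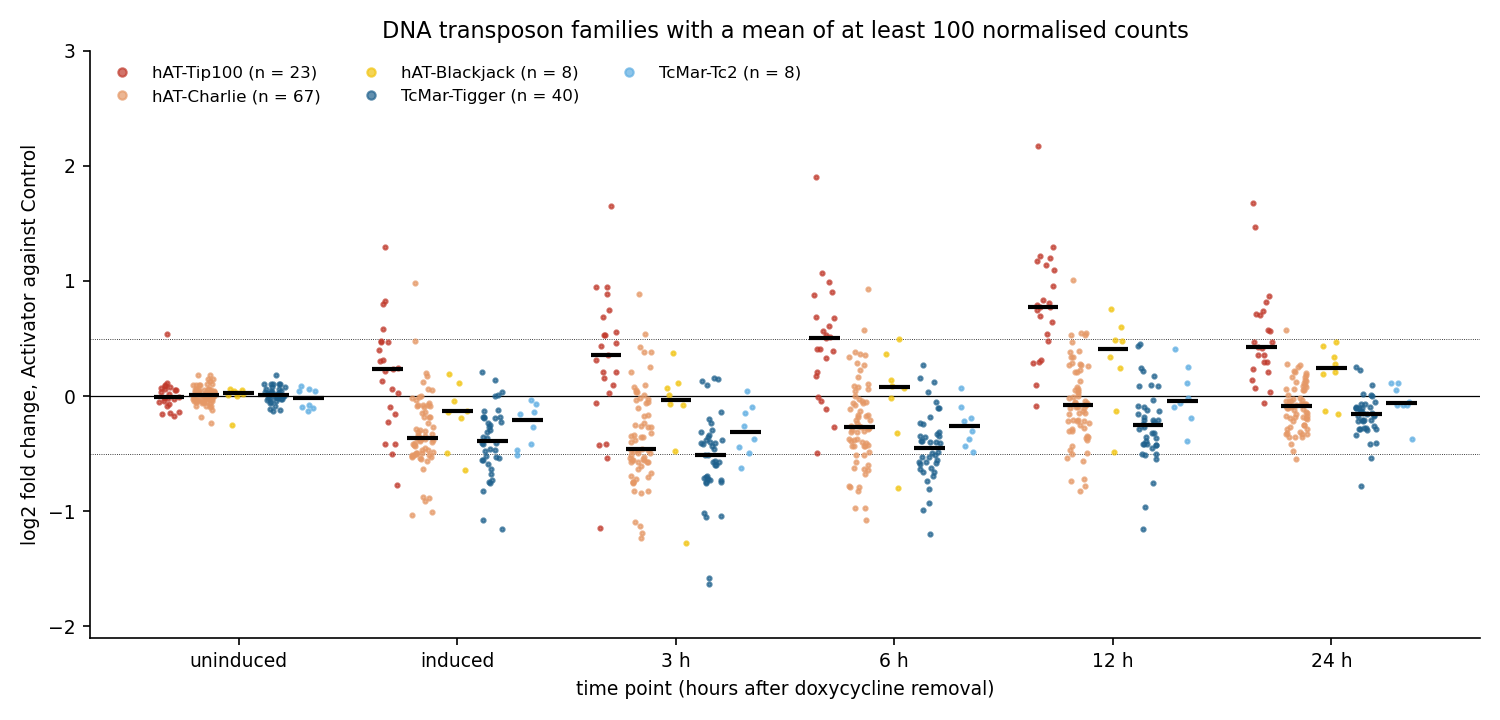
Log2 fold change of MSR-dCas9-Activator against MSR-dCas9-Control (vertical axis) at 6 time points for DNA transposon families whose mean reached 100 normalised counts. Points are families, black bars are medians over families, and dotted lines mark 0.5 in either direction. All groups lie near 0 before induction; at 12 h hAT-Tip100 lies highest, and the TcMar-Tigger median is below 0 from induction on.

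The Tip100 share of hAT counts gives this within each library, free of scaling. It was 3.59 to 3.95% in the Control libraries from induction on. In induced Activator libraries it was 5.71, 4.49 and 5.93%. It reached 7.25, 6.04 and 7.05% at 12 h and was 6.95, 4.79 and 6.38% at 24 h. All 15 activated libraries lay above all Control libraries. The summed Tip100 level was 549 ± 16.8 CPM (SD, n = 3) in Activator and 299.9 ± 7.01 in Control at 12 h, a ratio of 1.83, and 497 ± 93.3 against 309.6 ± 32.5 at 24 h, a ratio of 1.61. FordPrefect and MER45B had the largest rises at 24 h among Tip100 families with a mean over 100. The other 28 families together were at 405 ± 12.3 against 245 ± 5.42 at 12 h. Conversely, the ratio of Charlie to Tigger counts, in which Tip100 plays no part, was 3.19 to 3.33 in Activator and 3.00 to 3.04 in Control at 12 h. Its difference from Control was smaller than that of the hAT to TcMar ratio: 0.12 against 0.18 on the log2 scale.

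FordPrefect, a Tip100 family, was higher at all 5 time points from induction on. In induced cells it had 357, 478 and 629 normalised counts in Control and 991, 933 and 1728 in Activator. The log2 fold change was 1.30 ± 0.20 (SE, adjusted p = 5.24e-06, edgeR). At 12 h the values were 334, 320 and 802 against 1962, 1632 and 2475, and the log2 fold change was 2.17 ± 0.21. The groups did not overlap, but replicate 3 was high in both lines. The family already stood at 375, 591 and 853 in uninduced Activator cells, against 286, 361 and 611 in uninduced Control (log2 fold change 0.54 ± 0.20, adjusted p = 1). Set against the uninduced cells, its change on induction was 0.76 ± 0.29 larger in Activator and was not called (adjusted p = 0.054, edgeR), whereas that to 24 h was 1.14 ± 0.29 larger and was called. In a fit of the 6 libraries at 24 h alone, its adjusted p was 0.0568.

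MER45B, the Tip100 family with the most reads, rose late. In induced Activator cells it had 2295, 1107 and 2342 normalised counts and in Control 1242, 1725 and 1528, so the groups overlapped. At 12 h it had 4138, 3919 and 3849 in Activator and 1912, 1787 and 1696 in Control. At 24 h it had 7040, 3212 and 5099 against 1739, 1609 and 2150, with each Activator library above each Control library. The log2 fold change was 0.32 ± 0.21 in induced cells (adjusted p = 0.208), 1.14 ± 0.21 at 12 h and 1.47 ± 0.21 at 24 h (adjusted p = 1.2e-06, edgeR). Between induction and 24 h it rose by 1.42 ± 0.21 within the Activator line.

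Zaphod and Zaphod3, Tip100 families as well, followed the group. Zaphod had 2358, 1931 and 2360 normalised counts in Activator and 926, 835 and 951 in Control at 12 h, a log2 fold change of 1.29 ± 0.19. Zaphod3 had 850, 758 and 857 against 378, 375 and 316, a log2 fold change of 1.20 ± 0.16. Neither was called in induced cells (0.24 ± 0.19 and 0.48 ± 0.16), and both were at 24 h (0.87 ± 0.19 and 0.74 ± 0.16).

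MER115 and MER96 were the other Tip100 families with a mean over 100 that were higher at all 5 time points. MER115 had 1253, 782 and 1276 normalised counts in induced Activator cells and 529.9, 731 and 650.1 in Control. Replicate 2 of the Activator line was again the lowest, above Control replicate 2 by little. The log2 fold change was 0.80 ± 0.14 (adjusted p = 2.35e-06, edgeR), 1.10 ± 0.14 at 12 h and 0.71 ± 0.14 at 24 h. MER96 changed by 0.83 ± 0.21 in induced cells and by 0.82 ± 0.21 at 24 h. Arthur1A was called in induced cells (0.58 ± 0.21, adjusted p = 0.0172), but leaving out any of 4 single libraries ended the call, and at 24 h it was at 0.47 ± 0.20.

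Of the 30 Tip100 families 2 were called lower at any time point. They were MamTip1, at -0.77 in induced cells and 0.10 at 12 h, and MER91A, at -0.50 and -0.09. These were named after their values were seen.

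Among Charlie families most calls up to 6 h were falls. Charlie17b was the exception among the families named for size: it was higher at all 5 time points. It had 380, 261 and 390 normalised counts in induced Activator cells and 154, 213 and 159 in Control, without overlap, a log2 fold change of 0.99 ± 0.18 (adjusted p = 3.42e-06, edgeR). At 24 h it was at 436, 267 and 299 against 208, 243 and 224, a log2 fold change of 0.58 ± 0.18. Its namesake Charlie17 was at 311, 409 and 302 against 472, 493 and 512 at 24 h, a log2 fold change of -0.55 ± 0.16. That call was lost without Control replicate 3.

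MER5C1, MER106A and Charlie23a were the Charlie families with the largest falls in induced cells. MER5C1 had 133, 194 and 147 normalised counts in Activator and 260, 356 and 350.3 in Control. The log2 fold change was -1.03 ± 0.18 (adjusted p = 6.74e-07, edgeR), and no Activator library reached the lowest Control library. MER106A had 219.9, 254 and 239.7 against 472, 478 and 482, a change of -1.005 ± 0.16. Charlie23a changed by -0.91 ± 0.19. By 24 h none of the 3 was called (-0.33 ± 0.17, -0.32 ± 0.15 and -0.35 ± 0.19). Within the Activator line they rose from induction to 24 h by 0.92 ± 0.18, 0.79 ± 0.16 and 0.63 ± 0.19. The median over all repeat families was 0.38. The 3 were chosen for their falls in the same induced libraries, so these values cannot tell a recovery from an effect of the choice.

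The Charlie families with the most reads moved little. URR1A, URR1B and RCHARR1 were at -0.27 ± 0.12, -0.23 ± 0.12 and -0.36 ± 0.12 in induced cells, and none was called. URR1A had 41630, 38160 and 45580 normalised counts in Activator and 43130, 55300 and 53760 in Control, with overlap. At 12 h URR1A was at -0.02 ± 0.12 and URR1B at 0.27 ± 0.12. With mitochondrial scaling all 3 were called lower in induced cells (-0.63, -0.59 and -0.72).

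**Figure D4:**
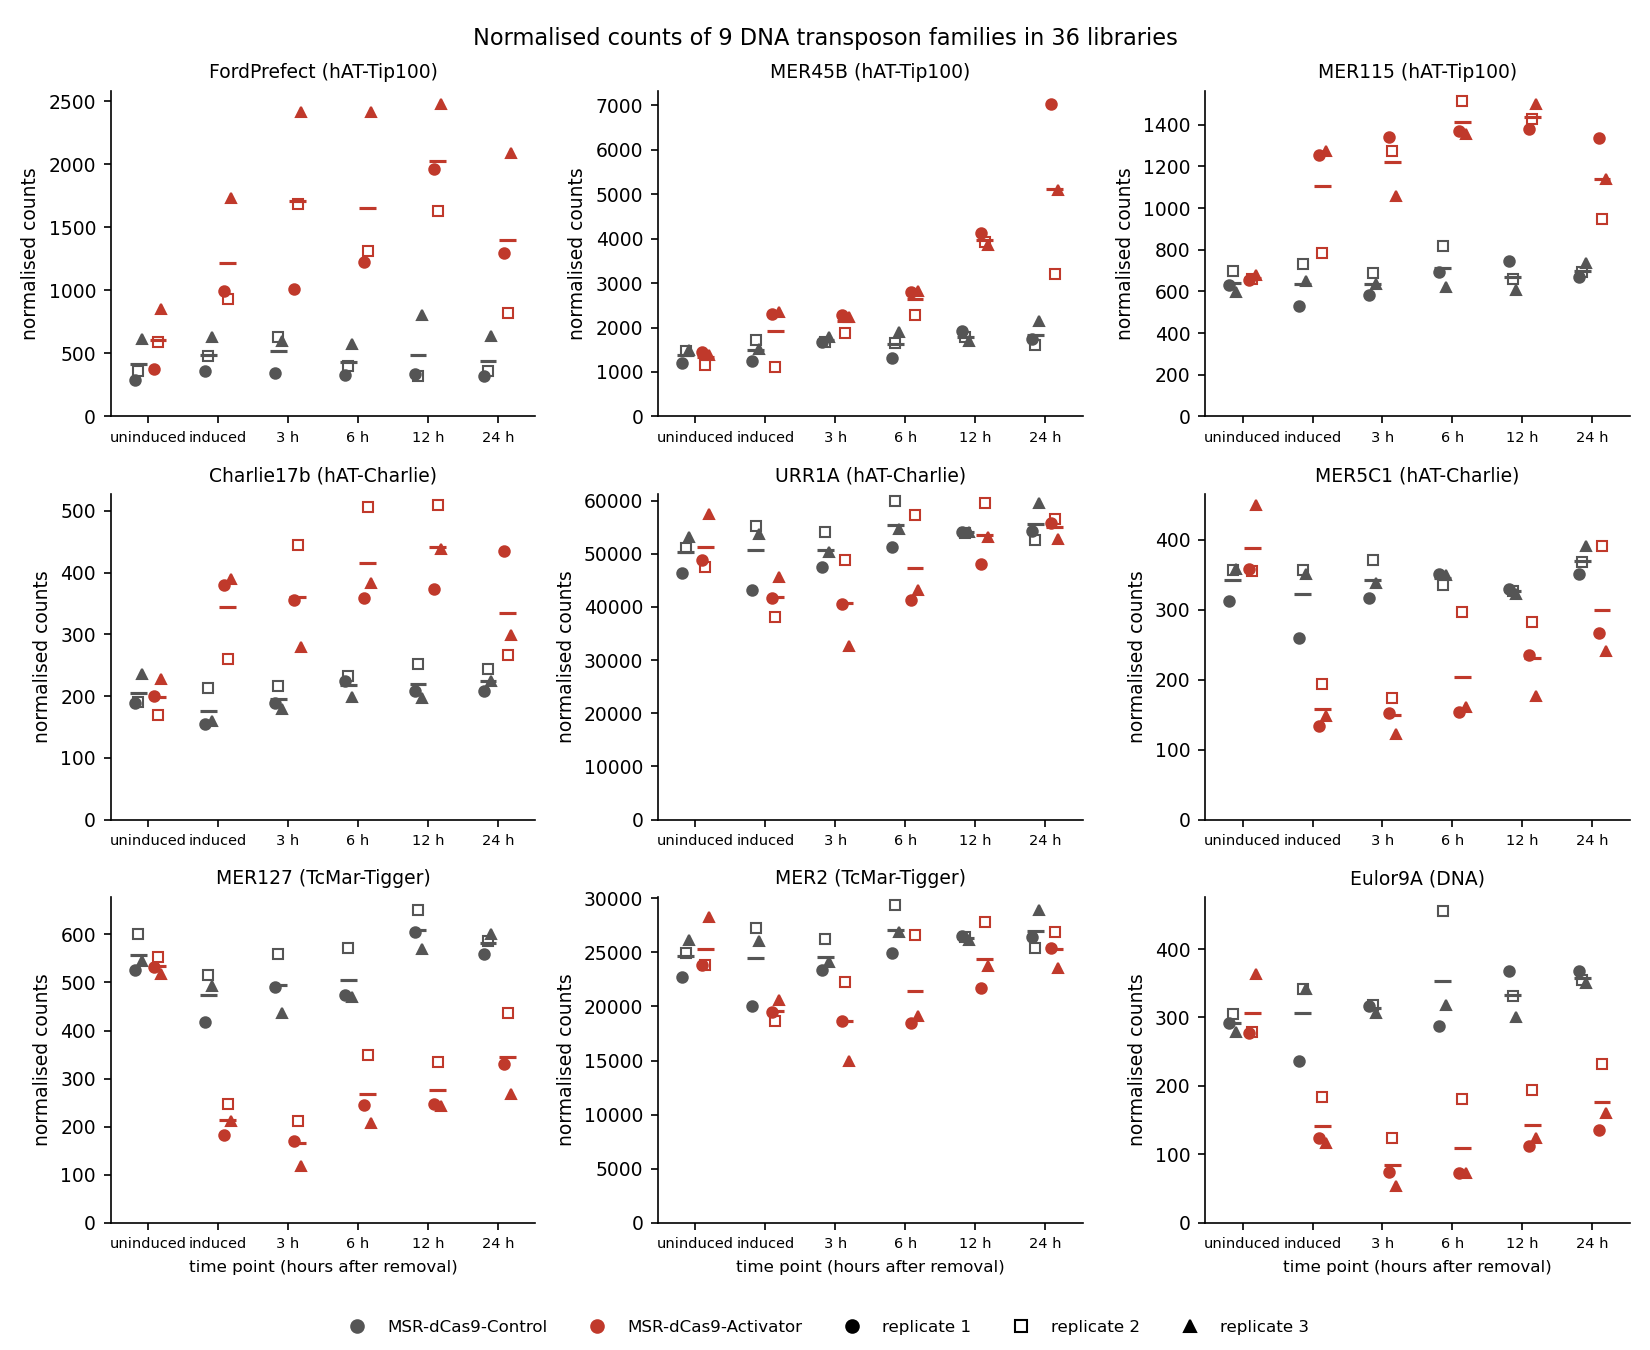
Normalised counts of 9 DNA transposon families (vertical axes, from 0) in 36 libraries at 6 time points. Grey, MSR-dCas9-Control; red, MSR-dCas9-Activator; shapes are replicates and bars are means of 3. FordPrefect, MER45B, MER115 and Charlie17b rise in Activator, MER45B mainly from 6 h on; MER5C1, MER127 and Eulor9A fall on induction.

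Among TcMar-Tigger families falls were frequent at first and rare by 24 h. Of 42 tested, 0, 1, 1, 1 and 1 were higher and 14, 21, 18, 6 and 2 lower from induction to 24 h. The lower ones were 33.3, 50.0, 42.9, 14.3 and 4.76% of the group, against 12.3, 15.8, 11.2, 5.76 and 2.28% of all repeat families. Falls thus became rarer among all repeat families too, and the share in Tigger was the larger at each time point. MER127 was lower at all 5 time points. It had 183, 248 and 211 normalised counts in induced Activator cells and 418, 515 and 492 in Control, and 330, 437 and 267 against 559, 586 and 600 at 24 h, with no overlap at either time. The log2 fold change was -1.15 ± 0.16 (adjusted p = 8.91e-10, edgeR) in induced cells, -1.58 ± 0.16 at 3 h and -0.78 ± 0.15 at 24 h.

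Tigger12c fell in induced cells and was not called at 24 h. It had 217, 274 and 244 normalised counts in induced Activator cells against 433, 558 and 563 in Control (-1.08 ± 0.16), and 422, 476 and 380 against 483, 447 and 683 at 24 h (-0.34 ± 0.16, adjusted p = 0.0815), where the groups overlapped. Tigger18a was lower at all 5 time points, by -0.82 ± 0.15 in induced cells and -0.54 ± 0.14 at 24 h. The latter call was lost without Control replicate 3 or without Activator replicate 3.

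MER2, Tigger7 and MER44B held the most TcMar reads. MER2 had 19450, 18680 and 20570 normalised counts in induced Activator cells and 20050, 27280 and 26060 in Control, a log2 fold change of -0.31 ± 0.12. At 3 h it was at -0.40 ± 0.12 and at 24 h at -0.09 ± 0.12. MER44B, the third in reads, was called lower in induced cells (-0.59 ± 0.14, adjusted p = 0.000184, edgeR) with 3253, 3214 and 3432 against 3998, 5761 and 5256. The families of the other TcMar groups with the most reads were MARNA (Mariner), at -0.56 ± 0.14, Kanga2_a (Tc2), at -0.51 ± 0.14, and DNA1_Mam, which has no TcMar group, at -0.70 ± 0.23, in induced cells. Leaving out 1 library ended each of these 3 calls.

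MER132, the sole Pogo family, had 0 counts in all 18 Control and all 3 uninduced Activator libraries. It had 5, 1 and 7 counts in induced Activator libraries, 15, 7 and 11 at 12 h and 10, 2 and 5 at 24 h. A count of 0 allows up to 3 counts in a library, so only at 12 h were all 3 libraries above this floor. The call of this family, which is among the TcMar families counted as higher, rests on these few reads.

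Families outside both superfamilies moved in either direction. Of the 10 tested with no superfamily, 6, 6, 5, 4 and 3 were lower from induction to 24 h, and edgeR called 0 higher at any time point. Of all repeat families 12.3, 15.8, 11.2, 5.76 and 2.28% were lower. Eulor9A, from a set of repeats conserved among bony vertebrates, was lower at all 5. It had 123, 184 and 116 normalised counts in induced Activator cells and 236, 342 and 341 in Control, and 73.7, 124 and 54.1 against 317, 318 and 307 at 3 h. The log2 fold changes were -1.13 ± 0.20 and -1.94 ± 0.21, and -1.06 ± 0.20 at 24 h. MER123 was at -0.78 ± 0.22 in induced cells and -0.68 ± 0.22 at 24 h. The latter call was lost without Activator replicate 1. In contrast MamRep4096, listed as a possible hAT family, was higher at all 5 time points, with 422, 365 and 443 normalised counts against 170, 144 and 153 at 12 h (1.39 ± 0.20). Its call in induced cells (0.62 ± 0.20) was lost without Control replicate 1, Activator replicate 1 or Activator replicate 3. Looper, the PiggyBac family, was not called at any time point (-0.35 in induced cells, 0.00 at 24 h).

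Ricksha elements were listed under both MuDR and MULE-MuDR, and entries of the same name moved apart. These were named after their values were seen. Ricksha_a under MuDR had 9, 5 and 8 counts in induced Activator libraries and 123, 67 and 89 at 24 h, against 15, 21 and 10 and then 24, 9 and 14 in Control. It was the 1 DNA family called in both directions (-1.23 in induced cells, 2.63 at 24 h). Ricksha_a under MULE-MuDR was higher at all 5 time points (0.73 in induced cells, 0.84 at 24 h). How reads were divided between such entries is not stated in the sources used here. MER97d, the Tip100 family with the largest fitted change, was likewise named after its values were seen. It had 4, 5 and 4 counts in induced Control and 33, 17 and 30 in induced Activator libraries, and 96, 35 and 38 in Activator at 24 h. Control libraries held 1 to 11 counts of it, so a fall could hardly have been seen and the size of its change is uncertain.

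The change from the uninduced state was compared between the lines, which removes differences present before induction. From uninduced to induced, the change in Activator less that in Control was called higher in 6 DNA families and lower in 38 (11.8% and 9.85% of all repeat families). All 6 higher ones were hAT. Among the lower ones 18 were hAT and 15 TcMar. The count of 44 fell to 18 to 23 when any of 5 single libraries was left out: Control uninduced replicate 1 (23) or 2 (20), Control induced replicate 3 (19), or Activator uninduced replicate 1 (21) or 3 (18). From uninduced to 24 h, 10 were higher and 2 lower (19.9% and 0.871%). The count of 12 became 6 without Activator replicate 1 of 24 h and 27 without replicate 2.

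Within the Activator line 51 of 198 DNA families (25.8%) rose between induction and 24 h and 1 fell (26.9% and 0.737% of all repeat families). The median log2 fold change was 0.39 among DNA, hAT and TcMar families alike and 0.38 among all repeat families. This rise was therefore not particular to DNA transposons. In Control edgeR and DESeq2 called 0 DNA families between these time points (0% of all families), with 12 at an unadjusted p under 0.05. The median change in Control was 0.14 for DNA families and 0.13 for all repeat families. Likewise both tools called 0 between uninduced and induced Control, where 1 had an unadjusted p under 0.05. Of the 46 families lower in induced Activator cells, 5 were lower and 1 was higher than Control at 24 h. Of the 15 that were higher, 11 were still higher. Over all repeat families 184 were lower in induced cells and 34 at 24 h, and 301 and 433 were higher. How many of these were the same families was not counted. The count of 52 fell to 28 without Activator induced replicate 2 and to 32 without Activator 24 h replicate 1.

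Genes that descend from DNA transposases were examined as the host counterpart. Of 28 such genes, all were found and 27 were tested, with a call at an adjusted p under 0.05, a log2 fold change beyond 1 and a mean above 100. Over the 6 time points 0, 0, 1, 2, 1 and 2 were called higher and 0, 6, 10, 8, 5 and 0 lower. Among all genes tested 0.200%, 8.50%, 12.9%, 13.8%, 14.8% and 6.87% were called in either direction. Genes with a mean of 100 or less could not be called but are part of this total. With an adjusted p under 0.05 as the only limit (edgeR), 4 of the 27 were higher and 14 lower in induced cells. The shares of all genes tested were 31.6% and 25.8%. At 6 h 6 were higher and 17 lower, against 41.1% and 33.3% of all genes. The higher ones included Tigd4 and Pgbd1 in induced cells and at 6 h, and Rag1 at 6 h. Their means in Control at these times were 0 to 2.26 normalised counts. They passed the filter on low counts through Activator libraries, so a fall could not have been seen in them. The median log2 fold change of the list was -0.33 in induced cells, against 0.10 for all genes, and -0.58 against 0.14 at 6 h.

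Zbed3 and Zbed4, which carry zinc fingers of hAT transposase origin, were among the lower genes. Zbed3 (GRCm38 chr13:95323605-95337842) had 273, 497 and 279 normalised counts in induced Activator cells and 1192, 1083 and 1115 in Control, a log2 fold change of -1.72 ± 0.17, and at 24 h it was at -0.38. Harbi1, derived from a Harbinger transposase, had 75.5, 118 and 56.7 against 251, 261 and 260 (-1.65). Jrkl, of Tigger-like origin, was at -1.19 in induced cells and -1.78 at 3 h. Cenpb (chr2:131177289-131180067), of pogo-like origin, was at 1919, 2302 and 2088 against 3992, 4190 and 4388 at 12 h, a log2 fold change of -0.997 ± 0.10. This lay just inside the limit of 1, so the gene was not called. Gtf2ird2, which contains a hAT transposase segment, was higher at 3, 6 and 12 h (1.13, 1.13 and 1.34), and Tigd3 and Tigd5 were higher at 24 h (1.08 and 1.10). Pgbd1, derived from a PiggyBac transposase, had 0 to 5.91 normalised counts in the Control and uninduced Activator libraries and 81.1 to 246 in the 15 others. Its mean of 72.4 was under the limit of 100, so it was not called. It was named after its values were seen.

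**Figure D5:**
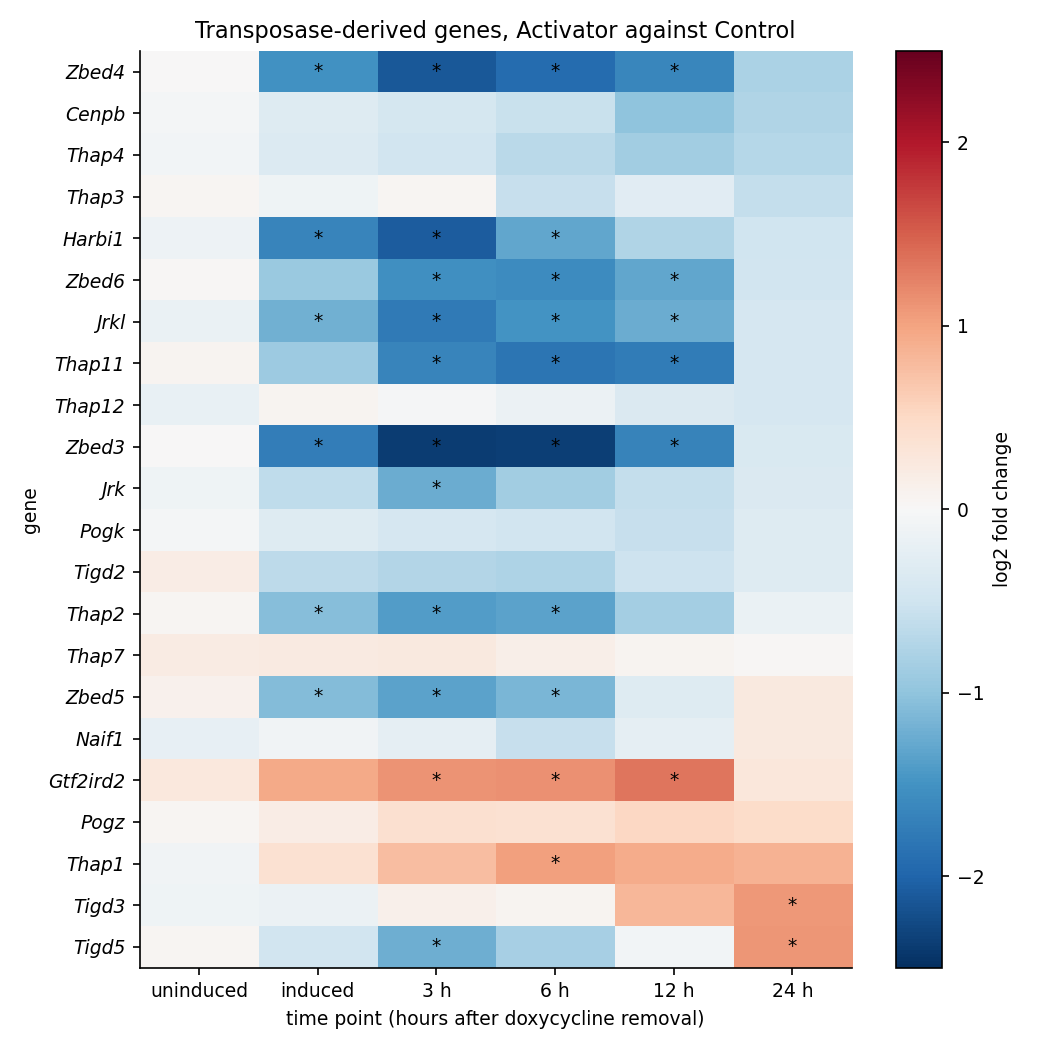
Log2 fold change (colour) of 22 transposase-derived genes whose mean reached 100 normalised counts (rows) in MSR-dCas9-Activator against MSR-dCas9-Control at 6 time points (columns), ordered by the value at 24 h. Stars mark calls. Blue cells dominate from induction to 12 h, and at 24 h the 2 stars are on Tigd3 and Tigd5.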

How the data were processed

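Total RNA depleted of ribosomal RNA was made into stranded libraries and sequenced as paired ends. The authors used cutadapt for trimming, STAR for alignment against GRCm38, and TEtranscripts to obtain the counts of genes and of repeats by family. The values deposited are raw counts for 54842 genes, 1561 repeat families and 1 unnamed row, left out here (at most 0.00452% of a library). How multi-mapped reads were shared is not given in the sources used here.

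DNA families, gene lists and tests were chosen with earlier results of these data known. Repeat counts were fitted in edgeR 4.0.16 (R 4.3.3; glmQLFit, robust) over 36 libraries by group with the replicate number as block, as in the study's design, after filterByExpr. Library sizes and TMM factors came from gene counts. DESeq2 1.42.0 was an alternative. Standard errors are the log2 fold change over the square root of F. Normalised counts are scaled to the mean library. Named were the 6 largest called rises and falls, induced and at 24 h, among families with a mean of at least 100, and the families with the most reads per superfamily and group. Fewer were named where fewer were called. Gene positions are from RefSeq (GRCm38.p6). p-values measure the spread between the replicates, which the study calls biological.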

Additional observations from a re-analysis of the deposited data

Results flagged for a closer look

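These results stood out because the change from the uninduced state differed between the lines in a test of the difference itself (edgeR, adjusted by Benjamini-Hochberg over 1492 repeat families). For the change to the induced state this signed difference, Activator less Control, was above 0 in 6 of the DNA families called and below 0 in 38. For the change to 24 h it was above 0 in 10 and below 0 in 2.

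In induced cells the difference of changes (log2, Activator less Control, ± SE) was 1.03 ± 0.26 for Charlie17b (adjusted p = 0.00153), 0.997 ± 0.303 for MER96 (0.0105) and 0.748 ± 0.204 for MER115 (0.00399). It was -1.10 ± 0.22 for MER127 (6.41e-05), -1.20 ± 0.28 for Eulor9A (0.000933), -0.965 ± 0.227 for Tigger12c (0.000709), -1.22 ± 0.25 for MER5C1 (7.35e-05), -1.10 ± 0.22 for MER106A (6.45e-05) and -0.964 ± 0.268 for Charlie23a (0.00828). At 24 h it was 1.53 ± 0.29 for MER45B (0.000266), 1.14 ± 0.29 for FordPrefect (0.00398), 1.01 ± 0.27 for Zaphod (0.00567), 0.989 ± 0.298 for MER96 (0.00926), 0.804 ± 0.281 for MamRep4096 (0.0299) and 0.758 ± 0.223 for Zaphod3 (0.00742). It was -1.14 ± 0.28 for Eulor9A (0.00155) and -0.724 ± 0.216 for MER127 (0.00827) at 24 h.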

How the results depend on the processing

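Depth limits the 29 tested families with a mean under 100, and 3 replicates per group limit every call. Of 601 alternative values of the 44 named results, 566 stayed on their side of the limits, 25 lost their call, 10 gained one and 0 changed direction, and 20 results kept their side throughout. Across replicate numbers, library deviations correlated from -0.117 to 0.38, over 0.1 in 11 of 18 pairs. The values were 0.102 to 0.258 for replicate 1, 0.0967 to 0.38 for replicate 3 and -0.117 to 0.075 for replicate 2. These data therefore do not show that all 3 numbers pair the lines. The reported fits hold the block because the study's design does. Without the replicate block the counts of DNA families called were 64, 89, 71, 59 and 26 from induction to 24 h, 32 and 10 for the changes from uninduced to induced and to 24 h, and 53 for Activator 24 h against induced.

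Counts called from induction to 24 h (61, 89, 72, 60 and 28) moved most with the limits and scaling; other causes were not tested. A log2 limit of 1 left 16, 26, 17, 25 and 11. No fold limit gave 102 in induced cells, 116 at 6 h and 98 at 12 h. Mitochondrial scaling gave 113, 144, 148 and 124 up to 12 h. The share called higher, 24.6, 24.7, 33.3, 65.0 and 78.6%, became 42.2, 45.6, 62.3, 80.6 and 88.2% with DESeq2 size factors, 6.20, 3.47, 3.38, 8.87 and 28.6% with mitochondrial scaling, and 18.7% at 6 h and 45.1% at 12 h with library size alone. A mean of at least 100 gave 16 at 24 h. Leaving out the Activator replicate 2 libraries together, chosen after seeing the data, gave 24 higher and 29 lower in induced cells and 45 called at 24 h.

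For the change to the induced state (44) the count was 10 with a log2 limit of 1, 21 with DESeq2 size factors and 22 in the 12 uninduced and induced libraries alone. For the change to 24 h (12) it was 7 with a log2 limit of 1, 4 with mitochondrial scaling and 39 without the Activator replicate 2 libraries. For Activator 24 h against induced (52) it was 8 with a log2 limit of 1, 112 with none, 124 with library size alone and 159 with mitochondrial scaling. Leaving out 1 library at a time gave 39 to 79 (induced), 64 to 103 (3 h), 61 to 91 (6 h), 57 to 66 (12 h), 17 to 43 (24 h), 18 to 61 and 6 to 27 (changes to induced and to 24 h) and 28 to 71 (Activator 24 h against induced).

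The log2 hAT to TcMar ratio differed between the lines by 0.05, 0.12, 0.16, 0.18 and 0.13 from induction to 24 h. Charlie against Tigger alone gave 0.0748, 0.108 and 0.116 at 3, 6 and 12 h. Leaving out single libraries gave 0.03 to 0.06, 0.11 to 0.14, 0.14 to 0.19, 0.16 to 0.20 and 0.11 to 0.17.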
